A study of Mus musculus with 35 samples.

Results

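The change from non-tumorous liver to tumor was compared between mouse liver cancers driven by lymphotoxin and mouse liver cancers driven by MYC. For each gene the quantity was a difference of differences: the mean of the lymphotoxin (LT) tumors minus the mean of the LT non-tumorous livers (NTL), less the same change in the MYC model. A positive value is called higher here and means that the LT change lay above the MYC change. A total of 16 of the 35 arrays of the series enter this comparison: 3 LT tumors, 5 LT NTL, 5 MYC tumors and 3 MYC NTL. Each gene is represented by its brightest probe set among those annotated to 1 gene symbol, which gave 18820 genes. Values are log2 expression levels, so 1 unit is a doubling, and ± stands for the standard error of the fitted difference unless SD is written.

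The LT mice were tg1223 transgenics that make lymphotoxin alpha and beta at a high level in the liver, and they were followed for 12 months. The MYC mice carried TRE-MYC together with LAP-tTA, a transactivator under a liver-specific promoter, and ate chow with doxycycline (200 mg/kg) until 8 weeks of age to keep MYC off. Their age at killing is not given in the sources used here. Tumor and non-tumorous tissue were separated by eye and the tumors were checked by histology. Another 4 arrays of untreated mice without a transgene, labelled as matched for sex and age, serve both models as controls and are used below only as a reference level.

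Lymphotoxins are cytokines of the tumor necrosis factor family that signal through the lymphotoxin beta receptor to NF-kB, and they are known in the liver for chronic hepatitis with recruitment of lymphocytes. MYC is a transcription factor that pairs with MAX on E-boxes and is known for driving ribosome production, nucleotide synthesis and cell division. The LT transgene therefore acts through signals between cells, whereas the MYC transgene acts inside the hepatocyte. In whole tissue, fewer cells of a type and less RNA per cell cannot be told apart.

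Several arrays stand apart or go against a simple reading of their labels. The 3 MYC NTL arrays have mouse identifiers that begin with WT and were kept as labelled, so whether these livers carried the transgenes is not settled. LT tumors 1 and 2 have identifiers with the same leading number and may come from 1 mouse, and no tumor shares an identifier with an NTL array. The identifiers do not say more about how the animals were related, so p-values measure only the spread between these arrays. Xist, an RNA made only from an inactive X chromosome, lay between 11.7 and 12.2 in the 3 LT tumors and in 4 of 5 LT NTL arrays, but at 5.88 in LT NTL 2 and between 4.21 and 5.35 on all 8 MYC arrays. The 4 controls were mixed as well, with Xist at 12.2 in control 3 and at 4.35 to 6.13 in the others. Sex therefore cannot be told apart from the model, and its effect drops out of the difference of differences only where tumor and NTL differ by sex in the same way. Without LT NTL 2 the count of genes below was 2124 in place of 2326, and 1996 genes were shared. In some genes ranked by size below, LT NTL 2 and control 3 lay outside the rest of their groups, in opposite directions. These were Clec2h, Adh6-ps1, Cabyr, Stap1, Duox1, Acnat2, Serpina7, Cplane1, Serpinb1a, Sdr9c7, Rec8, Pcp4l1, Emp2, Unc13b, Erc2 and Nrp2. All of them stayed called without LT NTL 2, and the part of sex in their differences was not tested.

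The difference of the tumor changes was called, at an adjusted p under 0.05 in limma over all genes, for 2326 genes (12.4%). Of these, 1084 (5.76%) were higher and 1242 (6.6%) lower, and 644 (3.42%) differed at least 2-fold. The tumor change itself was called for 3838 genes (20.4%) in the LT model and 4106 (21.8%) in the MYC model. Among the higher genes, 559 rose in LT tumors with no called change in MYC tumors, and 385 fell in MYC tumors with no called change in LT tumors. The lower genes were split the other way, with 609 that rose in MYC tumors only by call and 391 that fell in LT tumors only by call. A missed call in 1 model is not a difference by itself, and the test of the difference is the one given here. Opposite called changes were rare: 56 genes (0.298%) rose in LT tumors and fell in MYC tumors, and 120 (0.638%) did the reverse. Which of these was more frequent depended on the arrays: the counts were 80 and 71 with arrays of 1 mouse number averaged, and 100 and 102 without LT tumor 2.

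**Figure D1:**
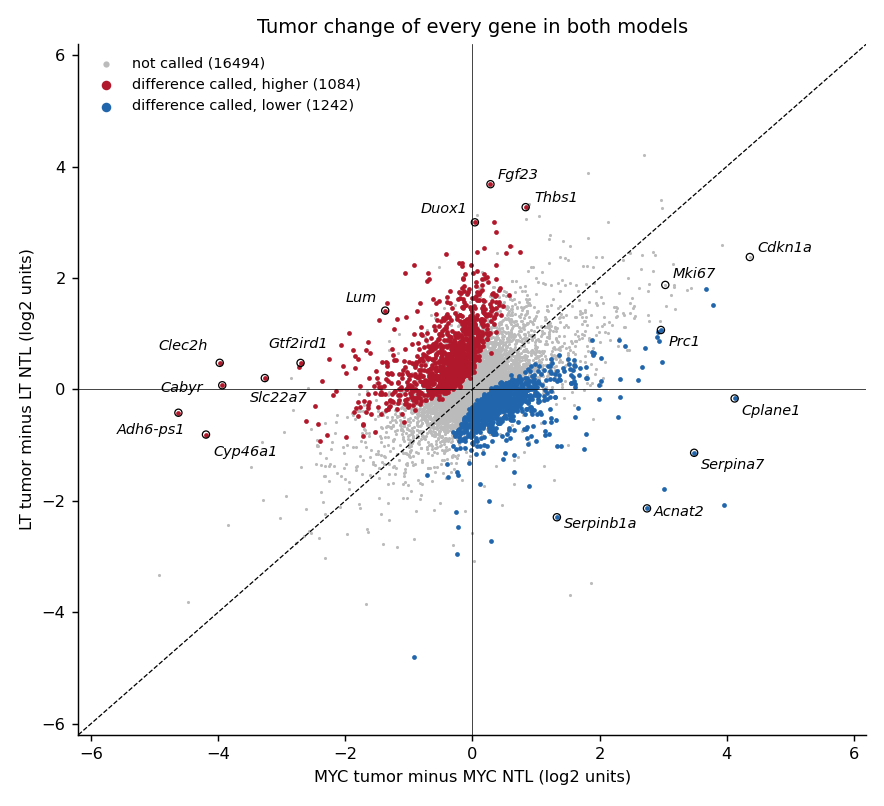
Each point is 1 of 18820 genes, with the MYC tumor minus NTL change on the horizontal axis and the LT tumor minus NTL change on the vertical axis, both in log2 units; the dashed line marks equal changes, colors mark the 1084 genes called higher and the 1242 called lower, and grey points are not called. Cplane1 and Serpina7 lie far right with LT changes near or below 0, whereas Fgf23, Duox1 and Thbs1 lie high with MYC changes near 0 to 0.84.

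The count rests partly on how the spread is estimated and on single arrays. With the spread taken from the 16 arrays alone, 1231 genes were called, and without LT tumor 1 the number was 1570. Among the 74 called genes named below, the fit of the 16 arrays alone ended 23 calls. They included Slc22a7, Fgf23, Ppp1r3g, Aqp4, Duox1, Pcp4l1, Shmt1, Ccl7, Eda2r, Folr2, Thbs1, Vwf and Col1a1. The rest were Ect2, Rrm2, Cd24a, Gbp7, Mx2, Ugt2b5, Nfil3, S100a6, Angpt2 and Nop56.

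For each gene the difference was then traced to its arrays. It equals the LT minus MYC difference in the tumor arrays less the LT minus MYC difference in the NTL arrays. A gene is said to be made by the tumor arrays where the first term is at least 0.75 of the whole, by the NTL arrays where it is at most 0.25, and by both otherwise. Tumor arrays made 1200 of the 2326 called differences (51.6%), both made 890 (38.3%) and NTL arrays 236 (10.1%). The higher genes were mostly a matter of the tumors (695 of 1084), while the lower genes were more often shared (600 of 1242 by both, 505 by tumor arrays). Taken as levels, 4901 genes (26%) differed between LT and MYC tumors, and 1628 (8.65%) between LT and MYC NTL.

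**Figure D2:**
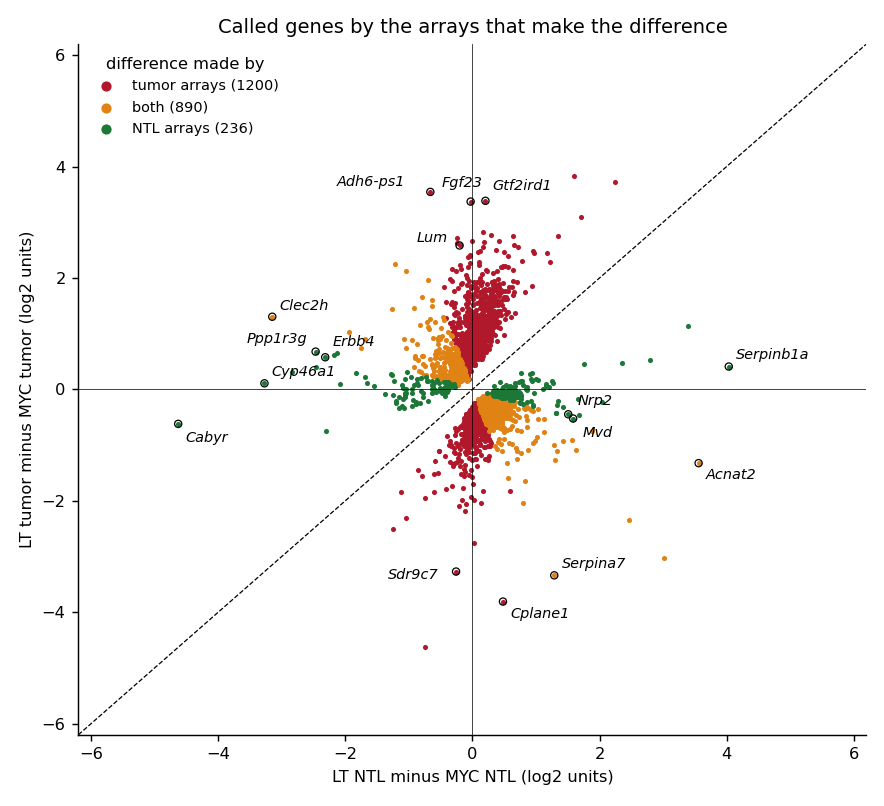
The 2326 called genes are placed by the LT minus MYC difference in NTL arrays (horizontal) and in tumor arrays (vertical), both in log2 units; the dashed line marks equal differences, where the difference of tumor changes is 0, and colors mark the 1200 genes made by tumor arrays (red), 890 by both (orange) and 236 by NTL arrays (green). Gtf2ird1, Fgf23, Lum, Cplane1 and Sdr9c7 stand near the vertical axis (tumor arrays), and Cabyr, Cyp46a1, Serpinb1a and Nrp2 near the horizontal one (NTL arrays).

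Where the NTL arrays made the difference, the shared controls show which NTL group lay farther from them, with the limit that the control group is mixed in Xist. Among the 99 NTL-made genes that were higher, the MYC NTL mean lay farther from the control mean than the LT NTL mean in 82 (82.8%), with median distances of 0.579 and 0.177. Among the 137 NTL-made lower genes this was so for 92 (67.2%), against 53.4% over all genes tested. The NTL-made genes were chosen by these same NTL values, and the MYC NTL mean rests on 3 arrays against 5. The share over all genes is therefore not a like baseline for them.

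The genes with the largest higher differences come first, leaving out predicted genes and families such as olfactory receptors and major urinary proteins. Gtf2ird1, a transcription factor of the TFII-I family, had the clearest tumor-made difference. Its level was 8.72, 8.54 and 7.91 in LT tumors, 7.61, 8.41, 7.70, 7.90 and 7.95 in LT NTL, 5.16, 4.96, 5.22, 4.78 and 4.92 in MYC tumors and 7.92, 7.76 and 7.45 in MYC NTL. The 5 MYC tumors were low and apart from every other array, so the MYC tumors make this difference. It came to 3.18 ± 0.25 (limma, adjusted p = 2.62e-09), and Gtf2ird1 fell by 2.70 in MYC tumors with an LT change of 0.47 (adjusted p = 0.0559).

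Adh6-ps1, annotated as an alcohol dehydrogenase pseudogene, was also made by low MYC tumors. LT tumors read 7.79, 8.69 and 8.54, LT NTL 8.18 to 10.37, MYC tumors 4.24 to 5.19 and MYC NTL 9.10 to 9.75. No MYC tumor reached any other array, and the difference was 4.21 ± 0.92 (limma, adjusted p = 0.00352).

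Fgf23, the phosphate-regulating hormone made mainly in bone, was raised in some LT tumors. Its values were 10.41, 10.85 and 4.87 in the 3 LT tumors and stayed between 4.80 and 5.57 on the other 13 arrays. LT tumor 3 thus lay with the NTL and MYC arrays, and the tumor-made difference of 3.40 ± 0.99 (limma, adjusted p = 0.0225) rests on LT tumors 1 and 2. Leaving out LT tumor 1, LT tumor 2 or MYC NTL 2 ended the call (2.55, 2.33 and 3.29, adjusted p = 0.112, 0.0937 and 0.0551), and leaving out LT tumor 3 raised it to 5.32. These arrays may be of 1 mouse, and with them averaged the difference was 2.44 (adjusted p = 0.0955). Duox1, a dual oxidase that makes hydrogen peroxide, showed the same uneven pattern at 10.26, 7.73 and 4.56 in LT tumors against 4.41 to 5.32 elsewhere. Its tumor-made difference was 2.96 ± 0.78 (limma, adjusted p = 0.0122) and 1.59 without LT tumor 1.

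Another group of higher genes owes its place to the MYC NTL arrays. Cabyr, a calcium-binding protein described in sperm, read 9.65, 9.4 and 9.31 in the MYC NTL arrays, and no other array of the comparison exceeded 6.64. The LT tumors (4.85 to 4.96) and MYC tumors (4.59 to 6.64) overlapped. Its difference of 4.01 ± 0.47 (limma, adjusted p = 2.57e-06) is made by the NTL arrays alone, and the tumor term has the opposite sign (-0.62). The controls lay at 4.91 to 6.21, so the MYC NTL arrays lay apart from the controls too.

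Cyp46a1, the cholesterol 24-hydroxylase best known from neurons, behaved likewise. MYC NTL read 9.70, 9.82 and 10.04, LT NTL 6.18 to 7.28, LT tumors 5.6, 5.61 and 6.11 and MYC tumors 5.38 to 6.11, with controls at 6.36 to 8.00. Cyp46a1 fell in both models, by 4.19 in MYC tumors and by 0.81 in LT tumors, to overlapping tumor levels, and the difference of 3.38 ± 0.35 (limma, adjusted p = 3.67e-07) comes from the NTL arrays.

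Erbb4, a receptor tyrosine kinase for neuregulins, read 7.28, 8.24 and 7.19 in LT tumors, 5.40 to 6.8 in LT NTL, 6.31 to 7.70 in MYC tumors and 7.98, 8.72 and 8.29 in MYC NTL. The tumors overlapped and the NTL arrays did not, so the NTL arrays make the difference of 2.89 ± 0.63 (limma, adjusted p = 0.0033). Ppp1r3g, a glycogen-targeting subunit of protein phosphatase 1, was NTL-made as well, with LT NTL at 5.20 to 6.33 and MYC NTL at 8.13 to 8.35. Its LT tumors were split (8.87, 9.02 and 6.12), and its difference of 3.14 ± 0.94 (limma, adjusted p = 0.0258) lost the call without LT tumor 1 or 2 (2.71 and 2.63) or without MYC NTL 1 or 3 (3.14 and 3.09), at adjusted p-values of 0.0525 to 0.0916, and with LT tumors 1 and 2 averaged as 1 mouse (2.67, adjusted p = 0.0705).

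The remaining large higher differences were shared between tumor and NTL arrays. Clec2h, a C-type lectin-related membrane protein, read 5.20, 7.42 and 6.07 in LT tumors, 4.80 to 5.13 in MYC tumors and 8.44 to 9.15 in MYC NTL. Its LT NTL arrays lay at 4.89 to 5.29 except LT NTL 2 at 8.19, the array with low Xist, and the difference was 4.45 ± 0.94 (limma, adjusted p = 0.00245) with all arrays and 5.06 without that one. The NTL arrays carry the larger term here (-3.15 against 1.30 in tumors).

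Slc22a7, the organic anion transporter OAT2 of hepatocytes, read 5.55, 9.31 and 9.56 in LT tumors, 7.34 to 8.84 in LT NTL, 5.13 to 7.39 in MYC tumors and 9.02 to 9.31 in MYC NTL. It fell in MYC tumors by 3.27, LT tumor 1 lay among the MYC tumors, and the difference was 3.47 ± 0.85 (limma, adjusted p = 0.00761). Stap1, an adaptor protein of blood cells, had a difference of 3.16 ± 0.86 (limma, adjusted p = 0.0149) and overlapping groups on every side: LT tumors spanned 6.92 to 8.77 and MYC tumors 4.88 to 7.24. Aqp4, a water channel, was high in LT tumor 2 (8.36) against 5.02 and 5.35 in the other LT tumors, and its difference of 2.96 ± 0.70 (limma, adjusted p = 0.00618) was 1.91 without it. All 3 are made by both kinds of array.

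**Figure D3:**
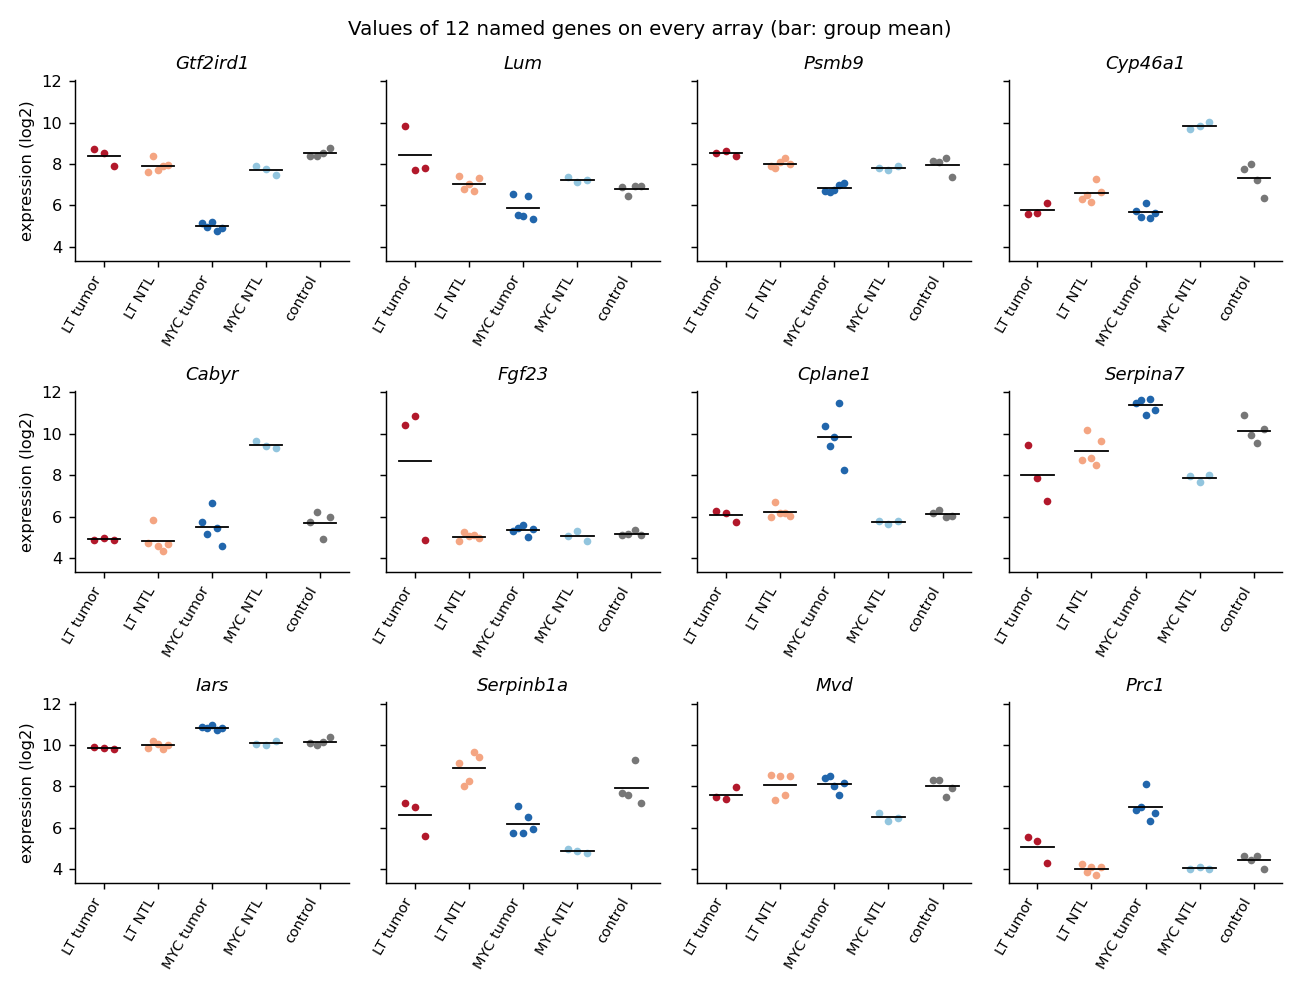
Log2 expression of 12 named genes on each of 20 arrays (points), in LT tumors, LT NTL, MYC tumors, MYC NTL and the 4 shared controls, with a bar at each group mean. In Gtf2ird1 and Cplane1 the 5 MYC tumors stand apart, in Cabyr and Cyp46a1 the 3 MYC NTL arrays, and in Fgf23 the LT tumors 1 and 2.

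Among the lower genes, Cplane1, which takes part in cilium formation, was the counterpart of Gtf2ird1. MYC tumors read 10.37, 9.39, 9.85, 11.47 and 8.23, and all other arrays of the comparison lay between 5.66 and 6.72. It rose by 4.13 in MYC tumors (17.5-fold) with an LT change of -0.16 (adjusted p = 0.802), a tumor-made difference of -4.29 ± 0.51 (limma, adjusted p = 2.57e-06).

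Sdr9c7, a short-chain dehydrogenase, was made by the LT tumors instead. They read 6.61, 7.29 and 9.77 against 10.42 to 10.94 in LT NTL, while MYC tumors (10.70 to 11.48) overlapped MYC NTL (10.86 to 10.89). All 3 LT tumors lay below every other array, and the difference was -3.01 ± 0.67 (limma, adjusted p = 0.00385). Rec8, a cohesin subunit of meiosis, rose in MYC tumors (6.93, 8.28, 4.85, 8.14 and 7.80) from 4.70 to 5.02 in MYC NTL. MYC tumor 3 did not share the rise, LT tumors lay at 4.26 to 4.56, and the tumor-made difference was -2.79 ± 0.59 (limma, adjusted p = 0.00267).

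Serpina7, the thyroxine-binding globulin, gave one of the largest differences, and both kinds of array contributed. MYC tumors read 11.48, 11.62, 10.93, 11.68 and 11.15 and MYC NTL 7.98, 7.67 and 8.01. LT tumors read 9.47, 7.87 and 6.76 and LT NTL 8.50 to 10.18. Serpina7 rose 11.2-fold in MYC tumors, the MYC tumors exceeded every other array, and the difference was -4.63 ± 0.68 (limma, adjusted p = 5.7e-05) with -3.34 from tumors and 1.29 from NTL.

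Acnat2, an enzyme that joins fatty acids to amino acids, moved in opposite directions. It fell in LT tumors (7.98, 6.47 and 9.06) from 8.70 to 10.60 in LT NTL, and rose in MYC tumors (8.17 to 9.99) from 6.07, 6.4 and 6.77 in MYC NTL. The tumors of both models overlapped, the NTL arrays gave 3.56 and the tumors -1.32 of the difference of -4.88 ± 0.87 (limma, adjusted p = 0.000531), and it is counted as made by both. Serpinb1a, an inhibitor of neutrophil proteases, also fell in LT tumors (7.19, 7.01 and 5.62 from 8.01 to 9.67) and rose in MYC tumors (5.72 to 7.04 from 4.77 to 4.95). Here the tumor levels overlapped and the difference of -3.62 ± 0.65 (limma, adjusted p = 0.00053) is made by the NTL arrays. LT NTL 2, low in Xist, read 8.01 against 8.26 to 9.67 in the other LT NTL arrays. Control 3, high in Xist, read 9.28 against 7.18 to 7.66 in the other controls. Without LT NTL 2 the Serpinb1a difference was -3.85.

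Ppp1r3b, the glycogen-targeting phosphatase subunit of liver, read 7.44, 7.37 and 9.14 in LT tumors against 9.43 to 9.84 in LT NTL, and 8.46 to 8.91 in MYC tumors against 7.57 to 8.12 in MYC NTL. No tumor overlapped its own NTL group, and the difference of -2.63 ± 0.35 (limma, adjusted p = 1.31e-05) was shared by both kinds of array. Tfrc, the transferrin receptor, was shared as well: it rose by 1.79 in MYC tumors (7.51 to 8.78 from 6.22 to 6.49), LT tumors lay at 6.81 to 6.93, and the difference was -2.58 ± 0.56 (limma, adjusted p = 0.00323).

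Emp2, a membrane protein of epithelia, rose by 2.98 in MYC tumors from an NTL level of 6.66 to 6.76 that lay below every LT NTL array (7.69 to 8.64), with a difference of -2.48 ± 0.56 (limma, adjusted p = 0.00444). Unc13b, which primes vesicles for release, rose by 2.33 in MYC tumors (8.01 to 8.63) above all LT arrays (5.82 to 7.56), a difference of -2.47 ± 0.47 (limma, adjusted p = 0.000938). Both were made by tumor and NTL arrays together. Pcp4l1 was the least firm of the large lower differences at -2.72 ± 0.87 (limma, adjusted p = 0.0373). It fell in LT tumors (5.37 to 5.81) from 6.65 to 9.33 and both kinds of array made the difference, but the call held in only 4 of 16 fits that left out 1 array, with values from -3.19 to -2.45.

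Beyond those already named, the largest differences on the higher side among genes with opposite called changes were those of Lum, Fabp5, Colgalt2, Cd300ld and Olfml3. Lum, the collagen-binding proteoglycan lumican, read 9.85, 7.70 and 7.81 in LT tumors, 6.68 to 7.40 in LT NTL, 5.32 to 6.57 in MYC tumors and 7.13 to 7.37 in MYC NTL. Every LT tumor exceeded and every MYC tumor fell short of all NTL arrays, and the tumor-made difference was 2.79 ± 0.47 (limma, adjusted p = 0.000282). Olfml3, a secreted olfactomedin-like protein, followed with 10.14, 8.40 and 8.89 in LT tumors, 6.65 to 7.53 in MYC tumors and a tumor-made difference of 2.34 ± 0.40 (limma, adjusted p = 0.000336).

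Colgalt2, which adds galactose to collagen, rose in LT tumors to 6.33, 7.10 and 7.52 from 4.26 to 5.44 and fell in MYC tumors to 3.92 to 4.56, a level near the lower limit of the arrays. Its tumor-made difference was 2.66 ± 0.32 (limma, adjusted p = 3.3e-06). Cd300ld, a receptor of myeloid cells, lay at 8.16, 7.65 and 8.04 in LT tumors and at 4.86 to 5.46 in MYC tumors, against 6.76 to 7.53 in LT NTL and 6.52 to 7.09 in MYC NTL. No tumor overlapped an NTL array, and tumors made the difference of 2.48 ± 0.33 (limma, adjusted p = 1.31e-05). Fabp5, a fatty acid carrier of macrophages and epithelia, rose by 1.24 in LT tumors and fell by 1.47 in MYC tumors. MYC NTL (7.97 to 8.56) lay above LT NTL (6.48 to 7.35), and both kinds of array made the difference of 2.71 ± 0.56 (limma, adjusted p = 0.00215).

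On the lower side, Erc2, a scaffold of nerve terminals, fell to 6.25, 5.78 and 5.47 in LT tumors and rose to 7.50 to 8.21 in MYC tumors from overlapping NTL levels (6.4 to 6.95 and 6.54 to 6.67). Tumors made the whole difference of -2.01 ± 0.28 (limma, adjusted p = 3.69e-05). Nrp2, a co-receptor for semaphorins and VEGF-C, went the other way about: the tumors overlapped (7.17 to 8.22 and 7.91 to 8.64) and the NTL arrays (8.03 to 9.05 and 7.02 to 7.23) made the difference of -1.95 ± 0.30 (limma, adjusted p = 0.000126). Gimap9, a GTPase of lymphocytes, was shared evenly, with -0.97 from tumors and 0.95 from NTL in a difference of -1.92 ± 0.32 (limma, adjusted p = 0.000247).

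Lists of genes of known function were then counted against the background of 5.76% higher and 6.6% lower. The median difference over all genes was -0.002. Stellate cells and the matrix they lay down form the list with the most calls. Of 31 measured members 24 were higher and 0 lower, the median difference was 1.54, and tumors made 22 of the 24. In the LT model 24 members rose (10.7% of all genes did), and in the MYC model 8 fell (10.3% of all genes) and 0 rose. Lum and Thbs1 led the list. Thbs1, the matrix glycoprotein thrombospondin, gave 2.43 ± 0.78 (limma, adjusted p = 0.0375), a call lost in 8 of 16 fits that left out 1 array, with values from 1.40 to 3.81, and with LT tumors 1 and 2 averaged (1.75, adjusted p = 0.119). Col1a1, the main chain of type I collagen, shows the spread: 10.21, 8.50 and 6.61 in LT tumors, 5.99 to 6.53 in LT NTL, 6.33 to 6.83 in MYC tumors and 6.48 to 6.60 in MYC NTL.

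LT tumors 1 and 2 were far above all other arrays, and LT tumor 3 lay among the MYC tumors in this gene. Col1a1 differed by 2.05 ± 0.53 (limma, adjusted p = 0.0111), made by tumors, and by 1.16 without LT tumor 1. Averaged over the list, the 3 LT tumors lay 2.42, 0.80 and 0.39 above the LT NTL mean, and the 5 MYC tumors 0.78, 0.42, 0.41, 0.17 and 0.01 below the MYC NTL mean. Without LT tumor 1 the count fell from 24 to 10 of 31 and the median to 0.87, and with the spread of the 16 arrays alone it was 7. The list's mean change was nevertheless higher in each LT tumor than in each MYC tumor.

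**Figure D4:**
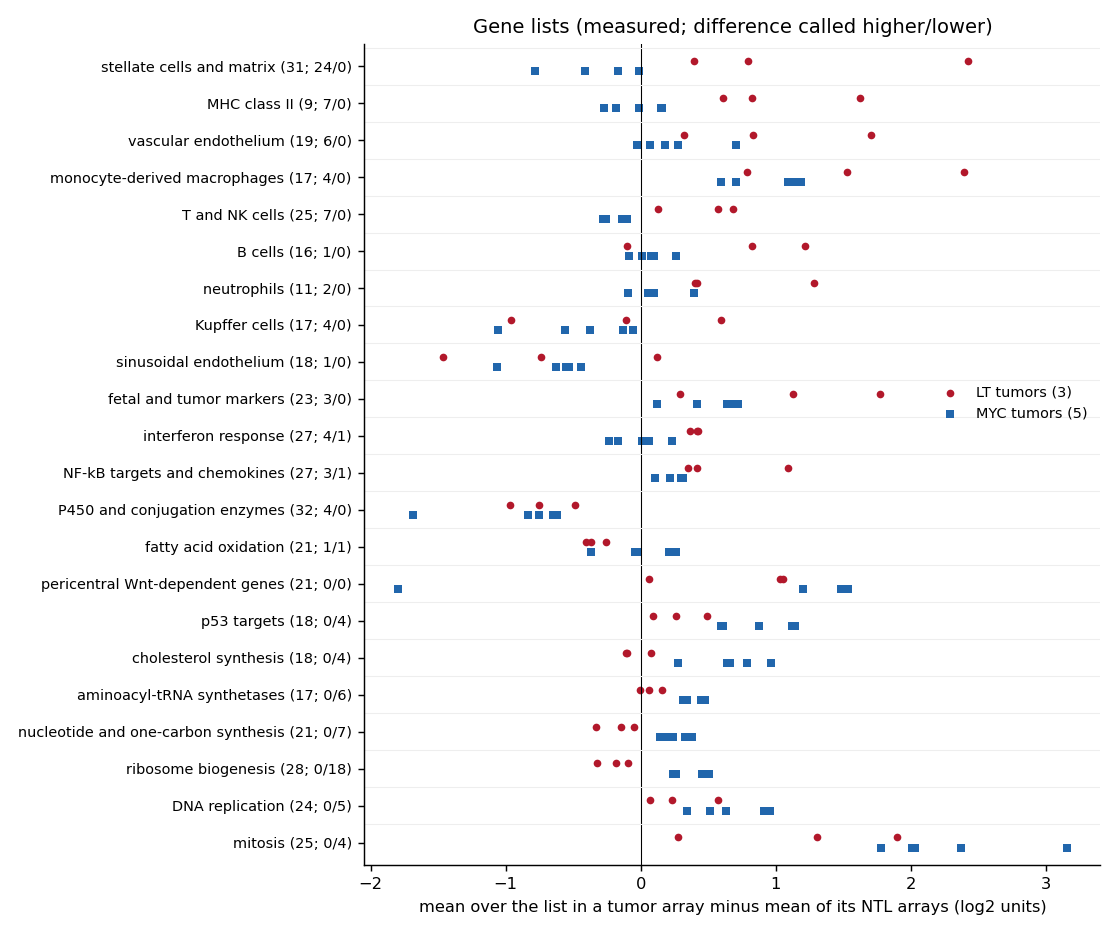
For 22 gene lists, each point is 1 tumor array: the list's mean log2 level minus the mean of the NTL arrays of its own model (red circles, 3 LT tumors; blue squares, 5 MYC tumors). The numbers after each name are the measured members and those with a difference called higher and lower. Lists in which LT and MYC tumors do not overlap include stellate cells and matrix, MHC class II and ribosome biogenesis. Aminoacyl-tRNA synthetases and nucleotide and one-carbon synthesis are also among them. For the pericentral genes 1 MYC tumor lies far left at -1.80.

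Antigen presentation by MHC class II, the complexes that show peptides to CD4 T cells, gave 7 higher genes of 9, all made by tumors: H2-Ab1, H2-Eb1, H2-Aa, Cd74, Ciita, H2-Ob and H2-Oa. The list was not uniform: its lowest difference was -1.17, without a call. As tumor levels 8 members were higher in LT and 1 was lower. H2-Ab1 read 11.58, 10.61 and 10.12 in LT tumors, 8.80 to 9.86 in LT NTL, 7.63 to 8.41 in MYC tumors and 8.39 to 8.83 in MYC NTL. All LT tumors exceeded every other array, and the difference was 2.12 ± 0.58 (limma, adjusted p = 0.0152). Without LT tumor 1 it was 1.72 (adjusted p = 0.0728) and 1 of 9 members stayed called, and the count lay at 2 without MYC NTL 3, 3 without MYC NTL 2, and 4 without MYC NTL 1, MYC tumor 2 or LT NTL 2, 3 or 5.

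Other immune and vascular markers leaned the same way with fewer calls. T and NK cell markers gave 7 higher of 25, 6 made by tumors. In tumor arrays as levels 20 of 25 were higher in LT, where the background is 13.8%. Cd4, the co-receptor of helper T cells, read 6.74, 6.31 and 5.64 in LT tumors, 5.01 to 5.78 in LT NTL, 5.07 to 5.78 in MYC tumors and 6.18 to 6.44 in MYC NTL, so both kinds of array made its difference of 1.79 ± 0.26 (limma, adjusted p = 5.7e-05). Cd3e, a chain of the T cell receptor complex, read 6.79, 6.30 and 7.0 in LT tumors and 5.47 to 5.86 in MYC tumors without overlap, and tumors made its difference of 1.15 ± 0.35 (limma, adjusted p = 0.03). The call for Cd3e was lost without LT tumor 1 or 3, MYC NTL 2 or 3 or LT NTL 5, at values of 1.00 to 1.14. The T and NK count fell to 3 without LT tumor 1 and rose to 12 without LT tumor 2.

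Monocyte-derived macrophage markers gave 4 higher of 17 (2 without LT tumor 1 and 10 without LT tumor 3), with 17 that rose in LT tumors and 11 in MYC tumors. Trem2, the lipid receptor of such macrophages, rose in both models, by 1.5 and 0.85, and its difference of 0.65 ± 0.31 was not called (limma, adjusted p = 0.178). Kupffer cell markers gave 4 higher of 17: Folr2, Adgre1, Csf1r and Slc40a1. The defining Clec4f was not among them (-0.72 ± 0.68, limma, adjusted p = 0.536), and the count was 2 without LT tumor 1 and 0 without MYC NTL 3.

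Vascular endothelial markers gave 6 higher of 19, all made by tumors; the count was 1 without LT tumor 1, 3 without MYC NTL 2 and 11 without LT tumor 3. Vwf, the platelet-binding protein of endothelium, read 9.11, 8.13 and 6.55 in LT tumors, 5.92 to 7.0 in LT NTL, 5.82 to 6.41 in MYC tumors and 6.19 to 6.44 in MYC NTL. LT tumors 1 and 2 were high, and the difference of 1.61 ± 0.42 (limma, adjusted p = 0.0127) was 1.02 without LT tumor 1 (adjusted p = 0.0742). Sinusoidal endothelial markers gave 1 of 18, B cell markers 1 of 16, neutrophil markers 2 of 11 and ductular markers 2 of 16. When single arrays were left out these counts were 0 to 1, 0 to 9, 1 to 5 and 0 to 4, in that order. As tumor levels 4, 12, 6 and 9 members were higher in LT, where the background is 13.8%. In LT tumors 0, 7, 10 and 5 members rose (10.7% of all genes did), and in MYC tumors 0 of each list. Hepatocyte markers gave 1 of 9, and Alb, which encodes albumin, lay between 13.62 and 13.77 on all 16 arrays.

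The lymphotoxin pathway gave calls at about the share of all genes (12.4%). Of 15 measured ligands, receptors and kinases, 8 had an unadjusted p under 0.05 and 2 were called: Tnfrsf1b, a tumor necrosis factor receptor, was higher (1.10, both) and Ikbkb, a kinase upstream of NF-kB, lower (-0.59, tumor arrays). Ltb, 1 of the transgene products, rose in LT tumors by 1.25 (7.12, 7.40 and 6.37 against 5.38 to 6.03), and its difference of 1.07 ± 0.50 was not called (limma, adjusted p = 0.169). As a level Ltb was higher in LT than in MYC tumors by 1.62 ± 0.36 (limma, adjusted p = 0.00102). Lta lay between 3.97 and 5.11 on all arrays of the comparison, with a difference of -0.52 ± 0.18 (limma, adjusted p = 0.0596), and was higher in LT than in MYC NTL by 0.48 ± 0.13 (limma, adjusted p = 0.0192). Whether these probe sets see the transgene messages is not known from the sources used here.

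NF-kB targets and chemokines gave 3 higher and 1 lower of 27, with 1 higher without LT tumor 1, 8 without LT tumor 2 and 7 without LT tumor 3. The lower one was Saa3, the largest difference of the list in size at -2.41 ± 0.70 (limma, adjusted p = 0.0211). Tumors made it by 0.754 of the whole, just over the limit. Its call was lost in 4 of 16 fits that left out 1 array and with LT tumors 1 and 2 averaged. Of the 27 list members, 14 rose in LT tumors (10.7% of all genes did) and 5 in MYC tumors (11.5%). As tumor levels 13 were higher in LT (13.8% of all genes) and 1 lower. An unadjusted p under 0.05 in limma was reached by 13 members for the difference of tumor changes. Ccl7, a chemokine for monocytes, read 7.03, 6.61 and 5.72 in LT tumors and 5.31 to 5.66 in MYC tumors, with a tumor-made difference of 1.01 ± 0.26 (limma, adjusted p = 0.0105) that was 0.72 without LT tumor 1 (adjusted p = 0.0622). Nfkbia, which encodes the inhibitor that NF-kB itself induces, fell by 0.63 in MYC tumors and differed by 0.86 ± 0.23 (limma, adjusted p = 0.0156), made by both and 0.78 without MYC NTL 2 (adjusted p = 0.0522). Interferon response genes gave 4 higher and 1 lower of 27, with 2 higher without LT tumor 3. As levels 13 were higher in LT than in MYC tumors and 6 higher in LT than in MYC NTL (4.91% of all genes). Psmb9, a subunit of the immunoproteasome, read 8.55, 8.62 and 8.39 in LT tumors, 7.81 to 8.30 in LT NTL, 6.66 to 7.07 in MYC tumors and 7.73 to 7.92 in MYC NTL. The tumors stood on either side of all NTL arrays, and the tumor-made difference of 1.5 ± 0.26 (limma, adjusted p = 0.000483) was mostly that of the MYC model, where Psmb9 fell by 1.00.

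The lists of ribosome biogenesis, tRNA synthetases, nucleotide synthesis, DNA replication and mitosis gave lower calls and 0 higher ones, though they hold few of the 1242 lower genes. Ribosome biogenesis, the nucleolar assembly of ribosomes, gave 18 lower and 0 higher of 28, with a median difference of -0.56. In the MYC model 17 members rose (11.5% of all genes did) and 0 fell, and in the LT model 9 fell (9.73% of all genes) and 0 rose. Tumors made 9 of the 18 and both kinds of array the other 9. Nhp2, a protein of the pseudouridylation complex, read 7.57, 7.82 and 6.98 in LT tumors, 7.35 to 8.19 in LT NTL, 8.43, 8.6, 8.30, 8.70 and 8.31 in MYC tumors and 7.09 to 7.69 in MYC NTL. All 5 MYC tumors exceeded every other array, and the tumor-made difference was -1.26 ± 0.24 (limma, adjusted p = 0.00101).

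The list mean lay 0.24 to 0.51 above MYC NTL in the 5 MYC tumors and 0.10 to 0.32 below LT NTL in the 3 LT tumors, so the models did not overlap. When each array was left out in turn the count lay between 12 and 20 of 28, the lowest without MYC NTL 2. Ncl, which encodes nucleolin and rose by 0.35 in MYC tumors, was among the 10 members not called (-0.20 ± 0.15, limma, adjusted p = 0.437).

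**Figure D5:**
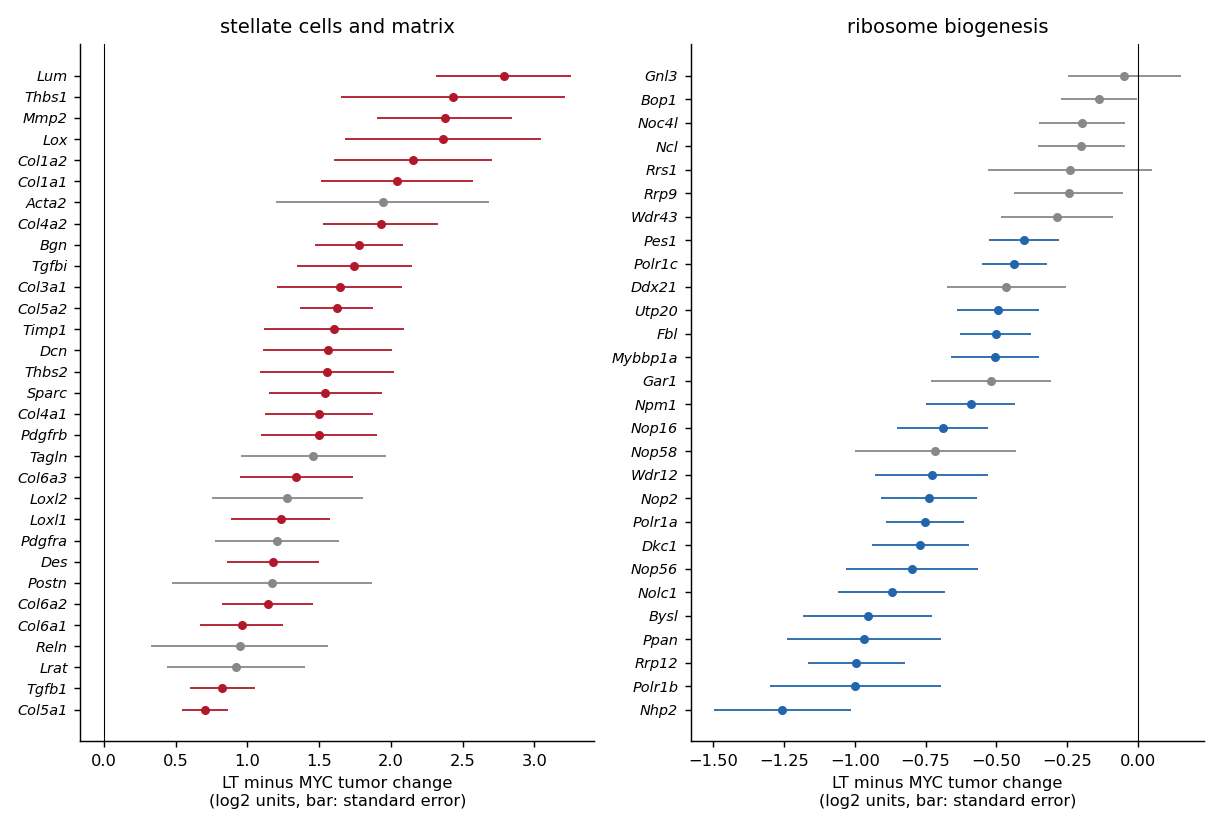
Difference of the tumor changes (LT minus MYC, log2 units, bars show the standard error) for the 31 measured genes of stellate cells and matrix and the 28 of ribosome biogenesis; red is called higher, blue called lower, grey not called. The matrix genes all lie right of 0, from Col5a1 to Lum at 2.79, and the ribosome biogenesis genes all lie left of 0, down to Nhp2 at -1.26.

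Related anabolic lists pointed the same way. Aminoacyl-tRNA synthetases, which load amino acids onto tRNA, gave 6 lower of 17, all made by tumors. Iars, the isoleucine enzyme, read 9.92, 9.83 and 9.81 in LT tumors, 9.82 to 10.18 in LT NTL, 10.74 to 10.95 in MYC tumors and 10.01 to 10.18 in MYC NTL. The MYC tumors were above all other arrays with little spread, and the difference was -0.88 ± 0.16 (limma, adjusted p = 0.000515). Farsa, the phenylalanine enzyme, gave -0.82 ± 0.12 (limma, adjusted p = 5.82e-05).

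Nucleotide and one-carbon synthesis gave 7 lower of 21, and 4 without LT tumor 1 or without MYC NTL 1. Mthfd2, a mitochondrial folate enzyme, rose by 1.51 in MYC tumors (7.32 to 8.12 from 5.97 to 6.42) and lay at 6.10 to 6.56 in LT tumors, a tumor-made difference of -1.06 ± 0.27 (limma, adjusted p = 0.00923). Shmt1, its cytosolic partner in serine use, instead fell in LT tumors (9.12, 9.75 and 11.04 from 10.53 to 11.04), and its difference of -1.04 ± 0.29 (limma, adjusted p = 0.0169), made by both, was -0.62 without LT tumor 1 (adjusted p = 0.0975) and -1.58 without LT tumor 3. With LT tumors 1 and 2 averaged it was -0.77 (adjusted p = 0.0674).

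Mitosis genes rose in both models. Of 25 measured members 20 rose in LT tumors and 25 in MYC tumors, and 4 differed, all lower; as tumor levels 20 were lower in LT, where the background is 12.3%. Prc1, which bundles spindle microtubules, read 5.55, 5.36 and 4.30 in LT tumors, 3.72 to 4.25 in LT NTL, 6.30 to 8.11 in MYC tumors and 3.98 to 4.08 in MYC NTL. Every tumor exceeded its NTL and every MYC tumor exceeded every LT tumor, and tumors made the difference of -1.90 ± 0.51 (limma, adjusted p = 0.0137). Both NTL groups lay near the lower limit of the arrays, so its changes tell direction more than size.

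Mki67, a marker of cycling cells, rose by 1.88 in LT and 3.04 in MYC tumors, and its difference of -1.16 ± 0.58 was not called (limma, adjusted p = 0.198). The mitosis count moved with single arrays, to 1 without LT tumor 3, 2 without MYC NTL 2, 8 without MYC tumor 1 and 15 without LT tumor 2. With each array centred on its median it was 9. DNA replication gave 5 lower of 24, and from 1 (without LT tumor 1) to 9 (without MYC tumor 5) when single arrays were left out. Mcm7, a part of the replicative helicase, was lower by -1.10 ± 0.18 (limma, adjusted p = 0.000262), made by both.

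Cdkn1a, the p53-induced inhibitor of the cell cycle, rose in both models, by 2.38 in LT tumors (10.47, 9.95 and 7.22 from 6.19 to 7.34) and by 4.37 in MYC tumors (9.45 to 11.08 from 6.05 to 6.15). Its difference of -1.99 ± 0.68 lay just short of the threshold (limma, adjusted p = 0.0502). It passed in 5 fits that left out 1 array (without LT NTL 5, LT tumor 1, LT tumor 2, MYC tumor 3 or MYC tumor 4, values of -2.62 to -2.13) and was -0.99 without LT tumor 3. p53 targets as a list gave 4 lower of 18: Eda2r, Zmat3, Trp53inp1 and Bbc3, 1 made by tumors and 3 by both. The count was 0 without MYC NTL 1, 1 without MYC NTL 3 and 2 without LT NTL 1 or 4, LT tumor 1, MYC NTL 2 or MYC tumor 1, 2 or 5.

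MYC and its partners gave 4 calls of 13, where 12.4% of all genes were called. Myc, measured with probes for the mouse gene, read 9.25, 8.91 and 7.96 in LT tumors, 7.65 to 9.80 in LT NTL, 8.88 to 10.52 in MYC tumors and 9.48, 6.42 and 7.25 in MYC NTL. The groups overlapped, Myc rose by 1.94 in MYC tumors, and the difference of -1.66 ± 0.86 was not called (limma, adjusted p = 0.215). Of 13 network members, Mlx, Mxi1 and Mxd4 were lower and Mycl higher, with 1 lower without LT tumor 1, LT tumor 2 or MYC NTL 3. Mlx, which pairs with glucose-sensing factors, had the largest called lower difference of the list, -0.70 ± 0.16 (limma, adjusted p = 0.00463), made by both.

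NTL arrays had a part in every called difference of the cholesterol list. Cholesterol synthesis gave 4 lower of 18: Mvd by the NTL arrays, Pmvk, Lss and Insig1 by both, and none by tumors. The tumor arrays gave 0.248 of the Mvd difference, just under the limit of 0.25. In 10 of the alternatives Mvd was no longer made by the NTL arrays alone. Mvd, an enzyme of the mevalonate pathway, read 7.46, 7.37 and 7.97 in LT tumors, 7.34 to 8.53 in LT NTL, 7.56 to 8.48 in MYC tumors and 6.72, 6.30 and 6.49 in MYC NTL. The MYC NTL arrays were below all others, controls included (7.48 to 8.33), and the difference was -2.11 ± 0.49 (limma, adjusted p = 0.00552).

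In the clock list 3 genes were lower and 1 higher of 16. Arntl, the core activator BMAL1, read 6.66, 6.49 and 6.04 in LT tumors, 5.84 to 6.78 in LT NTL, 6.29 to 8.46 in MYC tumors and 5.12, 4.80 and 4.78 in MYC NTL, a difference of -2.44 ± 0.69 (limma, adjusted p = 0.0189) made by both. With array weights the call for Arntl was lost (-2.53, limma, adjusted p = 0.0535), as it was with the replicate number as a block. Bhlhe41, a repressor in the same loop, went the other way, with MYC NTL at 7.23 to 7.52 against 5.09 to 6.29 in LT NTL and overlapping tumors. Its NTL-made difference was 2.13 ± 0.58 (limma, adjusted p = 0.0149) and 1.92 without LT tumor 1 (adjusted p = 0.0525). Controls lay at 6.68 to 8.79 for Arntl and 4.62 to 5.94 for Bhlhe41, outside the MYC NTL range for both genes. The hour of killing is not given in the sources used here, and its part in these values was not tested.

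Genes that differ between male and female liver differed in level between the models. Of 18 male-biased genes 15 were lower in LT NTL (3.74% of all genes were) and 7 lower in LT tumors than in the MYC groups, and 1 had a called difference of tumor changes (Ugt2b38, 1.18, NTL arrays). Of 18 female-biased genes 10 were higher in NTL (4.91% of all genes were) and 7 in tumors, and 0 had a called difference in limma (2 at an unadjusted p under 0.05). Across these lists the LT minus MYC shift was -2.59 in NTL and -1.96 in tumors (medians, male-biased) and 2.62 and 2.29 (female-biased). The shift did not fully drop out: the median difference of tumor changes was 0.86 for the male-biased genes (0.48 to 1.48 when single arrays were left out, 5 of 18 at an unadjusted p under 0.05) and -0.92 for the female-biased genes (-1.33 to -0.51).

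Other hepatocyte programs gave calls near or below the share of all genes (12.4%). P450 and conjugation enzymes gave 4 higher of 32 (1 without LT tumor 2 or MYC NTL 2, 2 without MYC NTL 1 or 3), with 12 that fell in LT and 13 in MYC tumors. Fatty acid oxidation gave 1 higher and 1 lower of 21, plasma proteins 1 of 27 and the urea cycle with amino acid breakdown 1 of 26. Lists of the acute phase (22 genes), lipogenesis (16), bile acid synthesis and transport (23), NRF2 targets (17), ATF4 targets (19) and pericentral genes (21) gave 0 calls in limma, with 1, 4, 3, 3, 2 and 0 members in that order at an unadjusted p under 0.05. With 3 arrays in 2 of the 4 groups a missed call does not show that the changes were equal. Fetal and tumor markers gave 3 higher of 23, and 8 without LT tumor 3. Igf2bp3, a fetal RNA-binding protein, read 6.81, 7.16 and 4.18 in LT tumors against 3.93 to 4.16 in LT NTL and MYC tumors and 4.65 to 4.99 in MYC NTL, and both kinds of array made its difference of 2.66 ± 0.45 (limma, adjusted p = 0.000284). Afp, Gpc3 and Igf2 were not called (-0.47 ± 0.90, 0.13 ± 1.22 and 1.03 ± 0.87).

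Promoters were looked at because the models act through transcription factors with known DNA motifs: CACGTG, the E-box bound by MYC with MAX, and a form of the NF-kB motif, GGG and TTTCC separated by any 2 bases, each on both strands in the 250 bases before the RefSeq start (GRCm38.p6). For the 2519 genes with several starts the first listed start was taken. CACGTG stood in 7.1% of 14739 promoters, in 7.43% of those of 834 higher genes and in 8.86% of those of 1005 lower genes. It stood in 1 of 23 promoters of ribosome biogenesis genes and in 2 of 23 of mitosis genes. The NF-kB motif stood in 1.3% of all, 1.8% of higher and 0.896% of lower promoters, and in 0 of 5 MHC class II promoters. These shares are descriptions, and a motif match is not a measured binding site. A window before the start used can lie inside the gene, as those of Unc13b, Mlx and Igf2bp3 below do.

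The windows below show 60 bases around the motif, in capitals, for the called named genes with a match and for Nop2, the ribosome biogenesis gene with an E-box (a nucleolar RNA methyltransferase, difference -0.74). They lie at chr6:49214955-49215014 (minus strand, Igf2bp3), chr4:43058703-43058762 (plus strand, Unc13b), chr6:145865541-145865600 (minus strand, Bhlhe41), chr13:49682034-49682093 (plus strand, Iars), chr11:101087223-101087282 (plus strand, Mlx), chr6:125131796-125131855 (plus strand, Nop2), chr8:122443435-122443494 (minus strand, Mvd) and chr12:55492648-55492707 (minus strand, Nfkbia), from RefSeq on GRCm38.p6, written 5′ to 3′ along the gene.
Igf2bp3: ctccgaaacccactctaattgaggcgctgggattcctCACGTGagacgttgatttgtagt
Unc13b: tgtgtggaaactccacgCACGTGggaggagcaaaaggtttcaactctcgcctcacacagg
Bhlhe41: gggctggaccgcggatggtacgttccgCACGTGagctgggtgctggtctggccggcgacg
Iars: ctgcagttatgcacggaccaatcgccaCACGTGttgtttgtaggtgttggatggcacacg
Mlx: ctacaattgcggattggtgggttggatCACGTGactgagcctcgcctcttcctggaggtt
Nop2: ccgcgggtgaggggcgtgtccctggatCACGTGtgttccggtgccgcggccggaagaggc
Mvd: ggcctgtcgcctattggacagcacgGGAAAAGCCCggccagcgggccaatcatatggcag
Nfkbia: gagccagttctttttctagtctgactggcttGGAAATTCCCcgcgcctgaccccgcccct
The E-box stood before lower genes (Unc13b, Iars, Mlx and Nop2) and before higher ones (Igf2bp3 and Bhlhe41). The NF-kB motif, here as its reverse complement, stood before the higher gene Nfkbia and the lower gene Mvd.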

How the data were processed

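Liver RNA was measured on Affymetrix arrays, 1 per sample. The deposited values are log2 levels that the authors made with RMA, per the submitters' processing notes; no version is named, and it is unknown if 1 normalization covered all 35 arrays. Arrays carry no depth, and precision is limited by how many there are.

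Of 35556 probe sets, 21218 carried 1 symbol, 1881 several and 12457 none, and for 1386 genes with more than 1 probe set the one with the highest mean was taken. Group means were fitted over all 35 arrays with limma 3.58.1 in R 4.3.3 (lmFit, eBayes, Benjamini-Hochberg over 18820 genes, called at 0.05). No gene was filtered. Levels below the first quartile of the arrays (4.13 to 4.24) are near their lower limit. On simulated data with 200 changed genes the fit recovered 75% of changes of 1 log2 unit and 95% of changes of 2, with 11 unchanged genes called. The simulation gave each gene the same spread on all arrays and shifted all 3 LT tumors alike. The real LT tumors were less even, with array weights (lower for noisier arrays) of 0.285 to 0.439. The simulated rates therefore need not hold for these data.

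Named genes are the 12 largest called differences per direction, the 6 largest per direction with opposite called changes, the leading called members of lists with 3 or more calls, and a set of markers; the ranking by size leaves out predicted, clone-named, small RNA, histone, olfactory, vomeronasal, antigen receptor and major urinary protein genes. Comparison, members and lists were chosen with earlier results of these data known. Alternatives were other scalings, probe set rules, filters, variance settings, averaged mouse identifiers, a replicate block and leaving out each array. Replicate numbers were not used to pair the samples, since no tumor shares an identifier with an NTL array (see also the closing section).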

Additional observations from a re-analysis of the deposited data

Results flagged for a closer look

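In groups of 5 arrays, 20 of 196 gene and group pairs tested had 1 array set apart from the others by Dixon's criterion, which chance alone meets in about 1 in 20 groups. LT NTL 2, the array with Xist at 5.88, was set apart in 8 of them: besides Xist these were Clec2h at 8.19, Adh6-ps1 at 10.37, Cabyr at 5.83, Duox1 at 4.81, Cplane1 at 6.72, Pcp4l1 at 6.65 and Ect2 at 5.77. MYC tumor 3 was set apart in 4, with Mki67 at 10.04, Glul at 9.41, Axin2 at 5.43 and Cyp2e1 at 11.72. LT NTL 4 was set apart for Tfrc at 6.4, Mlx at 9.52 and Mycl at 6.62, and LT NTL 5 for Stab2 at 9.25. Among MYC tumors, replicate 2 was set apart for Stab2 at 8.43 and Cd34 at 8.42, replicate 1 for Ltb at 5.15 and replicate 5 for Cd3e at 5.86.

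A called difference between the models is itself a difference between groups, tested as an interaction in limma, and 74 of the 98 named genes have one. Which arrays made a difference is given from the main fit. Among called genes this changed most often for Saa3 (11 alternatives), Mvd (10), Nrp2 (6) and Cyp2d10 (5). Tumor arrays made the higher differences of Adh6-ps1 (4.21), Fgf23 (3.40), Gtf2ird1 (3.18), Duox1 (2.96), Lum (2.79), Colgalt2 (2.66), Cd300ld (2.48), Thbs1 (2.43), Olfml3 (2.34), H2-Ab1 (2.12), Col1a1 (2.05), Angpt2 (1.99), H2-Eb1 (1.63), Vwf (1.61), Cd3g (1.53), Cd24a (1.52), Folr2 (1.51), Psmb9 (1.5), Gbp7 (1.47), S100a6 (1.41), Adgre1 (1.31), Cd3e (1.15) and Ccl7 (1.01). Both kinds of array made those of Clec2h (4.45), Slc22a7 (3.47), Stap1 (3.16), Aqp4 (2.96), Fabp5 (2.71), Igf2bp3 (2.66), Cd4 (1.79), Nfkbia (0.86), Ugt2b5 (0.77) and Mycl (0.74). NTL arrays made those of Cabyr (4.01), Cyp46a1 (3.38), Ppp1r3g (3.14), Erbb4 (2.89), Bhlhe41 (2.13) and Cyp2d10 (0.72). Among the lower genes, tumor arrays made the differences of Cplane1 (-4.29), Sdr9c7 (-3.01), Rec8 (-2.79), Saa3 (-2.41), Erc2 (-2.01), Prc1 (-1.90), Rrm2 (-1.32), Nhp2 (-1.26), Mthfd2 (-1.06), Iars (-0.88), Farsa (-0.82), Nop56 (-0.80) and Mxi1 (-0.62). Both kinds of array made those of Acnat2 (-4.88), Serpina7 (-4.63), Pcp4l1 (-2.72), Ppp1r3b (-2.63), Tfrc (-2.58), Emp2 (-2.48), Unc13b (-2.47), Arntl (-2.44), Ect2 (-1.96), Gimap9 (-1.92), Pmvk (-1.58), Nfil3 (-1.54), Eda2r (-1.38), Mcm7 (-1.10), Shmt1 (-1.04), Zmat3 (-1.03), Polr1b (-1.0), Mx2 (-0.74) and Mlx (-0.70), and NTL arrays those of Serpinb1a (-3.62), Mvd (-2.11) and Nrp2 (-1.95).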

How the results depend on the processing

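The 2326 called differences became between 1570 and 3105 when single arrays were left out, the lowest without LT tumor 1 and the highest without LT tumor 3. The ranges were 1566 to 5072 for the LT change, 2728 to 4417 for the MYC change, 726 to 1881 for NTL arrays, 686 to 1564 for higher genes, 26 to 100 for opposite genes higher in LT and 56 to 152 for those higher in MYC. With the spread from the 16 arrays alone, 1231 genes were called (522 higher, 709 lower), 973 in NTL arrays, and 34 and 61 with opposite changes; this fit has fewer arrays behind its variance. Centring each array on its median shifted the median difference by -0.057, left 2442 calls of which 38.6% were higher in place of 46.6%, and called 6217 for the LT change, 8861 in tumor arrays and 2879 in NTL arrays. Array weights gave 2019 for the LT change, 2242 in tumor arrays, 4371 in NTL arrays and 59 opposite genes higher in MYC, and averaging arrays with 1 mouse number gave 2311 for the LT change and 71 such opposite genes against 80 higher in LT. With the shared controls as reference in place of NTL the comparison becomes that of tumor levels, with 4901 genes. Except where said, the causes were not tested.

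With the replicate number as a block, 1972 genes were called. Deviations of same-numbered arrays correlated at -0.09 to 0.22 (median 0.02), and those of differently numbered arrays at -0.23 to 0.15 (median -0.004). The medians give no sign of a general pairing by number, but these ranges cannot exclude single pairs. None of the 74 called named genes changed sign in the alternatives run, and 9 of the 24 without a call did (Gpc3, Glul, Axin2, Alb, Clec4f, Cd79a, Stab2, Cyp7a1 and Cyp2e1). Of the 74 called, 42 stayed called in every fit without 1 array and 37 in every alternative. Precision is limited by how many arrays there are, and levels near the arrays' lower limit understate changes.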

Other observations

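MYC tumor 3 had low levels of many pericentral genes, which Wnt signalling keeps on around the central vein. In all 21 measured pericentral genes it lay below the other 4 MYC tumors, against 22.3% of all genes, and 19 of the 21 lay below the MYC NTL range; Cldn2 (9.33 against 8.70 to 8.79) and Slc1a4 (7.12 against 5.61 to 5.88) lay above it. Glul, which encodes glutamine synthetase, read 9.41 there against 13.43 to 13.52 in the other MYC tumors and 12.37 to 12.54 in MYC NTL, Lgr5 read 5.21 against 9.84 to 10.18, and Axin2, a feedback gene of Wnt signalling, 5.43 against 7.90 to 8.6. Without this tumor, Axin2 rose by 1.97 in MYC tumors, Lgr5 by 2.44 and Rhbg by 2.64 (limma, adjusted p = 0.00457, 0.0105 and 0.00331). The list's median LT minus MYC difference moved from -0.03 to -0.59, and 1 of 21 members, Nkd1, was then called (-1.98, adjusted p = 0.000609). These genes were singled out after their values were seen.

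Tumors of the third model of the series, induced by diethylnitrosamine, share no array with this comparison. Their tumor minus NTL change (5 and 5 arrays) was nearer to the LT than to the MYC change for 25 of 25 mitosis genes, with a median of 1.27 against 1.12 and 2.30, and for 0 of 9 MHC class II genes, with a median of 0.45 against 1.06 and -0.15. For stellate and matrix genes it was nearer to LT in 10 of 31, and for ribosome biogenesis in 17 of 28. Among tumor-made higher genes 30.8% and among tumor-made lower genes 62.4% were nearer to LT, against 49.5% of all genes. These are descriptions with no test. Xist lay between 3.54 and 4.41 on the diethylnitrosamine tumor and NTL arrays, low as on the MYC arrays and unlike the LT tumors. Nearness to either model therefore cannot be told apart from sex.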
